A study of Mus musculus with 10 samples.

Results

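The integrated stress response is the pathway by which a cell lowers general protein synthesis under stress and, at the same time, switches on a repair and survival programme. Kinases that sense different stresses phosphorylate the translation initiation factor eIF2alpha, translation of most mRNAs falls, and the mRNA of the transcription factor ATF4 is translated more, because of short upstream reading frames in its leader. ATF4, with bZIP partners such as CHOP, ATF5 and CEBPG, then induces genes for amino acid uptake and synthesis, for redox balance, for cell death where stress lasts, and for the phosphatase subunit that turns the pathway off again. In the developing cortex the PERK and ATF4 branch is known to influence how progenitors produce neurons.

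Described here are 10 regulators of this pathway, taken by symbol from the 53379 gene rows of an RNA-seq experiment on mouse neocortex: the eIF2alpha kinase genes Eif2ak3 (PERK, which senses endoplasmic reticulum stress) and Eif2ak4 (GCN2, which senses amino acid shortage), the transcription factor genes Atf4, Atf5, Ddit3 (CHOP) and Cebpg, the cofactor and pseudokinase genes Nupr1 and Trib3, the ATF4 target Chac1, and the phosphatase subunit gene Ppp1r15a (GADD34). All 10 symbols matched 1 gene row each. They were picked by role and symbol, with no threshold on a measured value, although earlier results of these data were known.

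The experiment compared 3 KO libraries with 7 control libraries. Both groups came from E16 embryos with MADM-7 cassettes on chromosome 7 and Emx1-Cre (a Cre that acts in cortical progenitors, so that their descendants inherit the recombined allele), on a mixed C57BL/6J and CD1 background (the sample labels give CD1). KO embryos (cKO-Cdkn1c-MADM-7) carried in addition the Cdkn1c-flox allele from both parents, so that Cdkn1c, which encodes the cyclin-dependent kinase inhibitor p57KIP2, was lost in the Emx1 lineage; control embryos were MADM-7 without that deletion. The question was how gene expression in these cells changes when the locus is deleted. Each library was made with Smart-Seq2 from 400 sorted fluorescent cells of 1 embryo, the fluorescent classes pooled. Embryo sex and litter were not used here, and whether they differ between the groups was not tested.

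KO libraries held between 2417184 and 2998916 reads on genes and control libraries between 1738220 and 3362487 (exact permutation test, two-sided, p = 0.583). KO libraries had reads on 17986 to 18319 genes and controls on 16802 to 18100, with a control median of 17105 (exact permutation test, two-sided, p = 0.0333); the part of this in detecting low genes such as Nupr1 and Trib3 was not tested. A total of 11551 genes had a mean of at least 10 reads and were tested with the quasi-likelihood test of edgeR; a gene is called when its Benjamini-Hochberg adjusted p is under 0.05. Levels are CPM, reads on a gene relative to the scaled size of its library (TMM scaling). Cdkn1c itself had 3.94 to 10.8 CPM in the KO libraries and 67.5 to 131 CPM in the controls, with no overlap (log2 fold change -3.66, SE 0.31, adjusted p = 3.68e-06); reads in the 625 exonic bases it shares with an antisense gene were left uncounted, and strand-wise counts were 1.894 times as many. The 12 markers of the Emx1 lineage were all detected, with summed levels of 2662 to 3137 CPM in KO and 3839 to 4601 CPM in control libraries; 3 of them were called lower. The 7 Cajal-Retzius cell markers summed to 599.6 to 813 CPM in KO against 26.1 to 215 CPM in control libraries, with 6 called higher, so that the levels of markers of different cell types differed between the groups. In a pool of cells, a change in the share of a cell type and a change in RNA per cell cannot be told apart, and the part of this difference in the results on the stress regulators was not tested.

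Of the 10 regulators, 8 passed the read filter and 2 of those were called, both higher in KO: Chac1 and Atf5. Over all genes tested 3.15% were called, 2.27% higher and 0.883% lower. All 3 KO libraries lay above every control for 2 of the 8 (Chac1 and Atf5) and below every control for 0 of the 8, beside 3.32% and 2.68% of all genes tested. Nupr1 and Trib3 had means of 5.8 and 7.8 reads over the 10 libraries and did not pass the filter, and both were present in every KO library. The kinase genes, Cebpg and Ppp1r15a had fold changes whose intervals spanned no change. The median log2 fold change of the 8 tested regulators was 0.40, beside 0.01 for all genes tested. Of the 8 values 7 were above 0, beside 5921 of the 11551 genes tested. Of those 7, Cebpg, Ppp1r15a and Eif2ak3 fell below 0 in at least 1 fit with a library left out. The filter left out the 2 regulators with the fewest control reads.

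**Figure D1:**
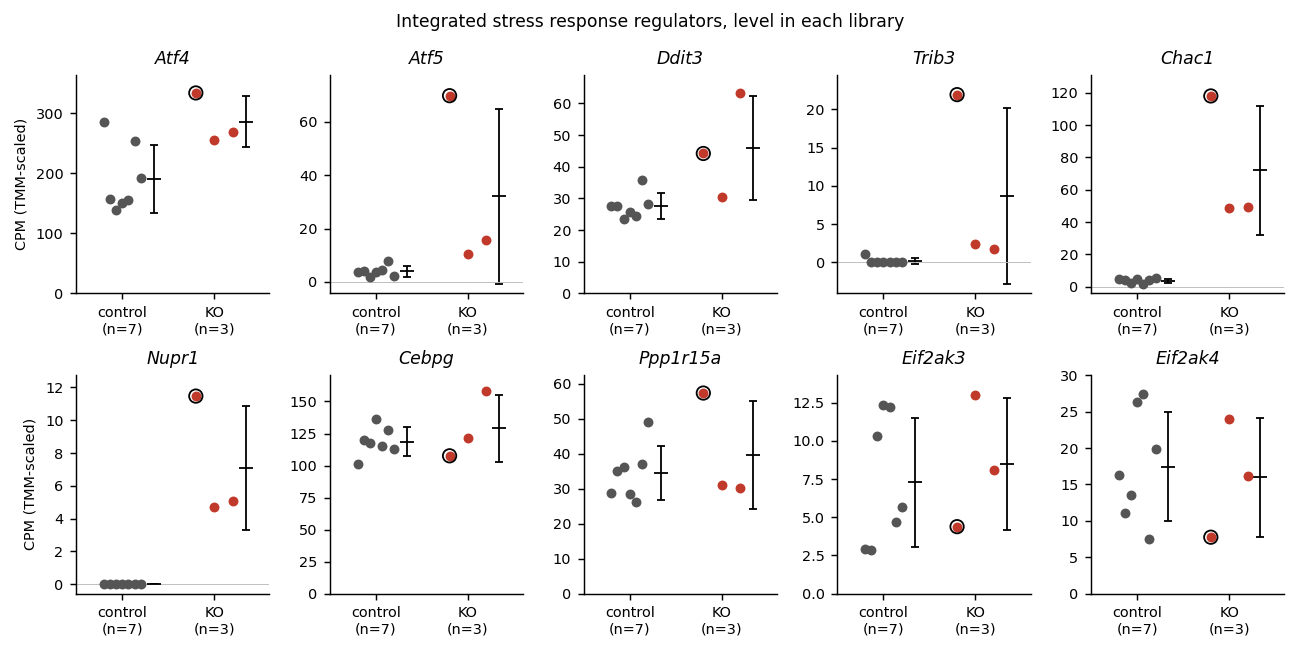
Level of each of the 10 regulators in each library, in CPM with TMM scaling on a linear axis; grey points are the 7 control libraries, red points the 3 KO libraries, the ringed point is KO replicate 1, and bars are the group mean with SD. Chac1, Atf5, Nupr1 and Trib3 lie above every control in all 3 KO libraries, and KO replicate 1 is the highest of the 10 libraries for each of them.

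Chac1 encodes a gamma-glutamylcyclotransferase that breaks down glutathione and is a standard readout of ATF4 and CHOP activity. It is on chromosome 2 (GRCm38, chr2:119351229-119354381, plus strand), and no other annotated gene overlaps its exons. The KO libraries had 118 CPM in replicate 1, 48.5 CPM in replicate 2 and 49.6 CPM in replicate 3, from 350, 123 and 117 reads. The controls ran from 1.75 CPM through a median of 3.96 CPM to 5.33 CPM, with at most 15 reads in a library. The lowest KO library therefore stood far above the highest control, and the means were 72.0 ± 39.8 CPM (SD, n = 3) and 3.84 ± 1.25 CPM (SD, n = 7). In the edgeR fit the log2 fold change was 4.21 (SE 0.35, adjusted p = 3.35e-06), which is an 18.5-fold difference with a 95% interval of 11.0 to 30.8. Chac1 ranked number 3 by p among all genes tested. Without KO replicate 1 the log2 fold change was 3.62, and it stayed called with any library left out.

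The promoter of Chac1 is shown because this gene had the clearest change among the regulators. The stretch below runs 5′ to 3′ from RefSeq (GRCm38.p6, chr2:119350992-119351228, plus strand) and ends just before the GENCODE start, which lies upstream of the RefSeq start from which positions are counted; capitals mark the reverse complement of TGATGNAA, the core of the C/EBP-ATF response element to which ATF4 with a C/EBP partner binds.
Chac1 promoter: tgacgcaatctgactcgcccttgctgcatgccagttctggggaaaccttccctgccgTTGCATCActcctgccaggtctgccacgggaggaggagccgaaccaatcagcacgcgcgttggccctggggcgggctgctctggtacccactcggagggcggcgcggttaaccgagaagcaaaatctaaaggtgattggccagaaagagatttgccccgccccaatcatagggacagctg

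All 10 regulators had a promoter window of 300 bases in the RefSeq table (250 bases before the start and 50 after it), and 3 of the 10, Chac1, Trib3 and Nupr1, held TGATGNAA on either strand. Of all 32851 windows 3.97% held it. Among genes with a window, 4.51% of all, 2.45% of those tested, 5.97% of those called higher and 4.35% of those called lower held it. Asns, the asparagine synthetase gene and a much used ATF4 target, held it too. Asns is a single example, and the other genes named from the lists are not described for this motif. The matches are shown with their surroundings so that the element can be compared between genes, each read 5′ to 3′ on the strand that carries TGATGNAA, with the match in capitals.
Chac1, chr2:119351038-119351067, minus strand: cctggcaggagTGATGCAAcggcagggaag
Nupr1, chr7:126625562-126625591, plus strand: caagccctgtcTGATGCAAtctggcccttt
Trib3, chr2:152344028-152344057, plus strand: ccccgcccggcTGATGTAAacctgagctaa
Asns, chr6:7693214-7693243, minus strand: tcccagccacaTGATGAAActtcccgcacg

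Chac1 and Nupr1 share the same 8 letters. The match begins 193 bases before the RefSeq start in Chac1, 110 before it in Nupr1 and 23 before it in Asns, and in Trib3 it begins at base 15 of the RefSeq transcript, which starts upstream of the GENCODE model whose position is given for Trib3 further on. In Nupr1 it also lies inside the first exon of a longer annotated transcript. The cAMP response element palindrome TGACGTCA, found in 1.79% of all windows and in those of 2.03% of all genes and 3.96% of tested genes, was present in 1 regulator, Ppp1r15a, from 12 bases before its start, and the element is shown with its surroundings for comparison.
Ppp1r15a, chr7:45526262-45526291, minus strand: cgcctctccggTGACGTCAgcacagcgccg

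The ER stress response element, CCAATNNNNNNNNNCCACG on either strand, was in none of the regulators' windows and in 0.119% of all windows. A match is a description of the letters in these windows only; Atf5, Atf4, Ddit3, Cebpg and the kinase genes held neither TGATGNAA nor TGACGTCA there. The motifs were chosen with the expression values known.

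Nupr1 encodes a small chromatin-associated stress cofactor that is induced by ATF4. It lies on chromosome 7 (chr7:126623249-126630861, minus strand), the chromosome that also carries Cdkn1c and the MADM cassettes. Reads numbered 34 in KO replicate 1 (11.5 CPM), 12 in replicate 2 (4.73 CPM) and 12 in replicate 3 (5.09 CPM). All 7 control libraries had 0 reads, which over the control group allows a level of up to 0.154 CPM (3 counts). Against that floor the pooled KO level of 7.30 CPM was at least 47.5-fold higher, and at least 31.6-fold higher without KO replicate 1. An exact permutation test over the libraries gave p = 0.0167 (two-sided), the smallest p that 3 against 7 libraries allow. Of the 1402 genes with a mean of 5 to 10 reads, Nupr1 was the only 1 with reads in every KO library and none in any control. Nupr1 is in that range only through its KO reads, so this describes its counts and adds no support. Fgf21, with a mean of 2.2 reads, showed the same pattern below that range. All 3 KO libraries lay above every control for 4.92% of those 1402 genes. Interval and floor cover counting error only.

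Trib3, on chromosome 2 (chr2:152337422-152344032, minus strand), encodes a pseudokinase that is induced by ATF4 and CHOP and restrains both ATF4 and AKT. KO replicate 1 had 65 reads (21.9 CPM), replicate 2 had 6 (2.36 CPM) and replicate 3 had 4 (1.70 CPM). Control replicate 1 had 3 reads (1.09 CPM) and the other 6 controls had 0. The groups did not overlap, but most of the KO reads came from 1 library. The pooled ratio was 61.4 (95% counting interval 20.2 to 304), and without KO replicate 1 it was 13.1 (3.39 to 74.3); the exact permutation test gave p = 0.0167 (two-sided). Its family members, with other roles in kinase signalling, passed the filter: Trib1 had a log2 fold change of 0.18 (SE 0.28, adjusted p = 0.827) and Trib2 one of -0.51 (SE 0.17, adjusted p = 0.119).

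When genes were tested with no filter on low counts, Nupr1 (adjusted p = 2.03e-10) and Trib3 (adjusted p = 3.66e-11) were called higher, as was Atf4, so that 5 of the 10 regulators were called against 2.64% of the 26537 genes in that edgeR fit. Their fitted fold changes are not given, because with control counts at or near 0 these depend on the small count that the fit adds.

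Atf4 encodes the factor at the centre of the response. Its mRNA was the most abundant of the 10 per length: in controls it reached 80.8 ± 24.3 CPM per kb of exon (SD, n = 7), ahead of Cebpg at 21.1 ± 2.00, Ddit3 at 16.1 ± 2.39 and Ppp1r15a at 11.7 ± 2.64 CPM per kb. Eif2ak4 (2.34 ± 1.01), Chac1 (2.34 ± 0.76), Atf5 (1.98 ± 1.01) and Eif2ak3 (1.21 ± 0.70 CPM per kb) lay close together, with control spreads that overlap, and Trib3 and Nupr1 were at or near 0. In KO the order of levels differed: Chac1, at 44.0 ± 24.3 CPM per kb (SD, n = 3), came next after Atf4 at 121 ± 17.9, and Atf5 at 16.1 ± 16.5 stood near Ppp1r15a at 13.5 ± 5.25 CPM per kb. Over KO replicates 2 and 3 alone the means were 30.0 CPM per kb for Chac1, 27.3 for Ddit3, 10.4 for Ppp1r15a and 6.61 CPM per kb for Atf5, and in replicate 3 Ddit3 (36.9) was above Chac1 (30.3 CPM per kb), so the KO order of these genes differs between libraries.

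Atf4 had 334, 255 and 269 CPM in KO replicates 1, 2 and 3. The controls ran from 139 CPM through a median of 157 CPM to 286 CPM, the highest being replicate 1, and 254 CPM was reached in replicate 6. The KO libraries were thus in the upper part of the range but overlapped it, with 1 KO library above every control. The log2 fold change was 0.59 (SE 0.20, 95% interval 0.16 to 1.02) and missed the threshold (adjusted p = 0.143). It passed when control replicate 1 was left out (log2 fold change 0.71, adjusted p = 0.0491), when the share of reads outside genes was a covariate (0.75, adjusted p = 0.0351) and with no filter on low counts (0.56, adjusted p = 0.0349). In the other edgeR fits with 1 library left out, and with DESeq2 (adjusted p = 0.131) or limma-voom (adjusted p = 0.121), it did not. Libraries fell into 2 sets by the share of reads outside genes; in the set with more such reads the Atf4 means were 294 CPM in 2 KO and 148 CPM in 3 control libraries, and in the set with fewer 269 CPM in 1 KO and 222 CPM in 4 control libraries. Atf4 activity depends largely on translation of its mRNA, which these reads do not measure.

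Atf5, a bZIP factor that is regulated in translation much as Atf4 is and is known for roles in neural progenitors and the mitochondrial stress response, was called. It lies on chromosome 7 (chr7:44812256-44816658, minus strand). KO replicate 1 had 69.8 CPM (207 reads), replicate 2 had 10.6 CPM (27 reads) and replicate 3 had 15.7 CPM (37 reads). The controls ran from 1.77 CPM through a median of 3.63 CPM to 7.91 CPM (6 to 22 reads). Every KO library was above every control, and the KO spread was wide, with replicate 1 at 5.30 times the mean of the other KO libraries. The log2 fold change was 3.11 (SE 0.54, adjusted p = 0.00297), an 8.64-fold difference with a 95% interval of 3.90 to 19.1. Without KO replicate 1 it was 1.76 (adjusted p = 0.0388), so that the size of the change rests largely on that library. Atf5 shares 82 exonic bases with Nup62 and with Il4i1 on the opposite strand, and reads that fall there were left uncounted; counting by strand and summing gave 1.177 times the reads and a log2 fold change of 2.74 (adjusted p = 0.00732).

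Within libraries, the log2 ratio of Atf5 to Atf4 (1 CPM added to each) was -3.57 ± 1.17 (SD, n = 3) in KO and -5.32 ± 0.52 (SD, n = 7) in control libraries, a difference of 1.75 with no overlap (exact permutation test, two-sided, p = 0.0167, adjusted over 3 such ratios p = 0.025). Without KO replicate 1, in which the ratio was -2.24, the difference was 1.08.

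Ddit3 encodes CHOP, which acts with ATF4 and promotes cell death in prolonged stress. KO replicates 1, 2 and 3 had 44.2, 30.3 and 63.2 CPM, and the controls ran from 23.5 CPM through a median of 27.5 CPM to 36.0 CPM. Of the KO libraries 2 lay above every control and replicate 2 was below only the highest of them, replicate 6; the next control was at 28.1 CPM. The log2 fold change was 0.73 (SE 0.23, 95% interval 0.23 to 1.22, adjusted p = 0.109), and with KO replicate 2 left out it passed the threshold (0.93, adjusted p = 0.0326), whereas with KO replicate 3 left out it was 0.45 (adjusted p = 0.388). Ddit3 (chr10:127290774-127296288, plus strand) shares exonic bases with Mars on the other strand and with a second annotated Ddit3 model, and strand-wise counts were 1.193 times as many.

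Cebpg encodes a C/EBP partner with which ATF4 pairs on amino acid and redox genes. It had 108, 122 and 158 CPM in KO replicates 1, 2 and 3, and from 101 CPM through 118 CPM to 136 CPM in controls. The groups overlapped and the log2 fold change was 0.12 (SE 0.16, 95% interval -0.21 to 0.44, adjusted p = 0.785), an interval whose upper end is a 1.36-fold difference.

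Ppp1r15a encodes GADD34, the inducible subunit that brings protein phosphatase 1 to eIF2alpha and ends the response; Ppp1r15b encodes its constitutive counterpart. Ppp1r15a had 57.3 CPM in KO replicate 1, 31.1 in replicate 2 and 30.1 CPM in replicate 3, while the controls ran from 26.2 CPM through 35.0 CPM to 49.1 CPM. Only KO replicate 1 was outside the control range. The log2 fold change was 0.21 (SE 0.25, 95% interval -0.32 to 0.74, adjusted p = 0.747) with all libraries and -0.18 without KO replicate 1. Ppp1r15b had a log2 fold change of 0.29 (SE 0.25, adjusted p = 0.621). The log2 ratio of Ppp1r15a to Ppp1r15b was 0.08 ± 0.88 in KO and 0.21 ± 0.52 in control libraries (exact permutation test, two-sided, p = 0.767, adjusted p = 0.767).

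The kinase genes had low counts. Eif2ak3 had 4.38, 13.0 and 8.06 CPM in KO replicates 1, 2 and 3 and from 2.85 CPM through 5.69 CPM to 12.3 CPM in controls. Eif2ak4 had 7.76, 24.0 and 16.1 CPM in KO and from 7.55 CPM through 16.3 CPM to 27.4 CPM in controls. For both genes the KO values spread over most of the control range. The log2 fold changes were 0.21 for Eif2ak3 (SE 0.49, 95% interval -0.82 to 1.23, adjusted p = 0.884) and -0.12 for Eif2ak4 (SE 0.40, 95% interval -0.96 to 0.72, adjusted p = 0.917). The upper ends of these intervals are a 2.35-fold difference for Eif2ak3 and a 1.65-fold difference for Eif2ak4. In controls the Eif2ak3 mean was 4.03 CPM in the 4 libraries with fewer of their reads outside genes and 11.6 CPM in the 3 with more, and Eif2ak4 had means of 13.7 and 22.4 CPM; the part of that share in these values was not tested.

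Of the remaining kinase genes, Eif2ak1 (HRI, which responds to heme shortage and mitochondrial stress) had a log2 fold change of -0.58 (SE 0.23, adjusted p = 0.216). Eif2ak2 (PKR, which responds to double-stranded RNA) had 25 reads in all KO and 26 in all control libraries and did not pass the filter.

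Chac2, the close relative of Chac1 that is expressed constitutively, had 18.9 to 23.8 CPM in KO and 12.2 to 27.9 CPM in control libraries (log2 fold change 0.14, SE 0.28, adjusted p = 0.862). The log2 ratio of Chac1 to Chac2 was 1.62 ± 0.84 (SD, n = 3) in KO and -2.05 ± 0.71 (SD, n = 7) in control libraries, with ranges of 1.03 to 2.58 and -3.40 to -1.42 (exact permutation test, two-sided, p = 0.0167, adjusted p = 0.025). The ratio, which is not corrected for transcript length, was thus higher in each KO library than in any control.

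**Figure D2:**
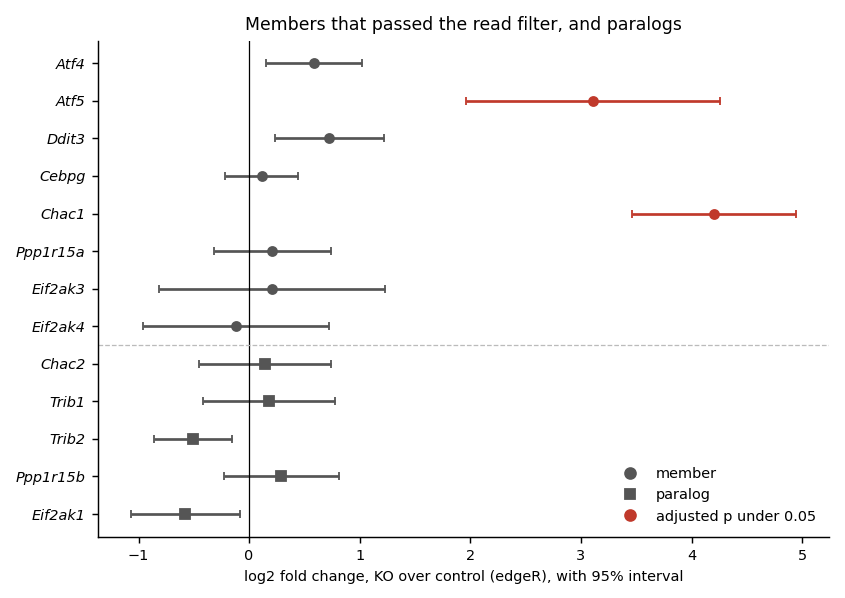
Log2 fold change, KO over control, from the edgeR fit, with 95% intervals, for the 8 regulators that passed the read filter (circles) and 5 paralogs (squares); red marks an adjusted p under 0.05. Chac1 at 4.21 and Atf5 at 3.11 lie apart from the others, and the intervals of the kinase genes are the widest among the members not called.

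The genes around these regulators were described as lists, of which the first is the machinery that senses stress and acts on eIF2. Of its 28 tested genes 0 were called by edgeR (7 had an unadjusted p under 0.05), beside 3.15% and 16.4% of all genes tested, and the median log2 fold change was -0.07. DESeq2 called 2, both lower: Oma1, the mitochondrial protease that relays stress to HRI, with an edgeR log2 fold change of -1.03 (SE 0.29, adjusted p = 0.0641), and Eif5, the factor that promotes GTP hydrolysis by eIF2, with -0.42 (SE 0.13, adjusted p = 0.1).

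Paralogs and other bZIP partners gave 3 called higher and 0 lower of 19 tested, beside 2.27% and 0.883% of all genes tested, with a median of 0.17 beside 0.01. The 3 called genes follow. They were Fosb (log2 fold change 1.95, SE 0.33, adjusted p = 0.00215), Fos (1.08, SE 0.24, adjusted p = 0.0173) and Nfe2l2 (1.20, SE 0.27, adjusted p = 0.0205), which encodes NRF2, the regulator of the oxidative stress response. Fos and Fosb are immediate early genes as well and are counted again in that list. Fosb was called with any library left out, whereas Nfe2l2 was not called without KO replicate 2 (adjusted p = 0.0647) or KO replicate 3 (adjusted p = 0.0822), and Fos not without KO replicate 1 (adjusted p = 0.111) or KO replicate 3 (adjusted p = 0.0705).

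The amino acid supply genes known to be induced by ATF4 gave 8 called higher and 0 lower of 20 tested, beside 2.27% and 0.883% of all genes tested. Their median log2 fold change was 0.75, beside 0.01 for all genes, and the part of ATF4 in this was not tested. Of the 8, Slc7a3 and Cth had a control mean under 10 reads and passed the filter only through their KO reads, which leaves 6 called that would have passed on the controls alone. Slc7a3, which encodes a transporter of cationic amino acids, had 92.1 to 110 CPM in KO and 0 to 1.43 CPM in control libraries, from 773 and 12 reads in all (adjusted p = 1.17e-15); its fitted fold change is not given, since it rests on control counts near 0. Asns, which makes asparagine, rose from 73.3 ± 13.9 CPM (SD, n = 7) to 209 ± 47.2 CPM (SD, n = 3), a log2 fold change of 1.51 (SE 0.18, adjusted p = 8.33e-05). Cth, which makes cysteine from cystathionine, had a log2 fold change of 2.71 (SE 0.35, adjusted p = 0.000231) from 170 KO and 63 control reads, and Slc7a5, the light chain of the large neutral amino acid transporter, one of 1.65 (SE 0.23, adjusted p = 0.000352). All 8 were also called without KO replicate 1, and 7 to 8 of the list were called with any 1 library left out. The lowest value of the list was that of Slc7a11, the cystine transporter gene (named after its values were seen), which was not called (adjusted p = 0.393): the KO libraries had 5.4 to 10.6 CPM, and the controls ran from 1.75 CPM through a median of 2.35 CPM to 151 CPM.

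In contrast to Chac1 and Atf5, the level of Asns in KO replicate 1 was 0.86 times, and that of Slc7a3 0.90 times, the mean of the other KO libraries.

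Of the signalling genes known to be induced by ATF4, 4 of 10 tested were called higher and 0 lower, beside 2.27% and 0.883% of all genes tested. The median log2 fold change was 1.02, and whether ATF4 drove these calls was not tested. Of the 4, Hmox1 had a control mean under 10 reads and passed the filter only through its KO reads. Eif4ebp1 encodes 4E-BP1, which holds back cap-dependent translation; it had 80.4 to 128 CPM in KO and 5.08 to 20.4 CPM in control libraries (log2 fold change 3.04, SE 0.25, adjusted p = 3.35e-06). Sesn2, whose product senses leucine and restrains mTORC1, had a log2 fold change of 2.70 (SE 0.32, adjusted p = 9.4e-05). Hmox1, the heme oxygenase gene, had 2.60 (SE 0.41, adjusted p = 0.0011) from 130 KO and 52 control reads. Bbc3, the proapoptotic BH3-only gene PUMA, had 1.95 (SE 0.45, adjusted p = 0.0213), with 127 CPM in KO replicate 1 and a mean of 27.4 CPM in the other KO libraries, and was not called without replicate 1 (0.74, adjusted p = 0.372), without control replicate 3 (1.89, adjusted p = 0.0507) or by limma-voom (adjusted p = 0.119). With any 1 library left out, 3 to 5 genes of the list were called.

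Fgf21 and Gdf15, secreted stress signals, did not pass the filter and were singled out after their values were seen. Among the other signalling genes under the filter, Stc2, Tnfrsf10b, Pmaip1 and Atf3 had higher mean CPM in KO than in control libraries. Cebpb (0.40 CPM in KO and 0.67 CPM in control) and Jdp2 (0.24 and 0.35 CPM) had lower ones. Fgf21 had 6, 5 and 11 reads in the KO libraries and 0 in all controls, at least 18.0-fold higher against a floor of 3 counts over the control group. Gdf15 had 1, 10 and 18 reads in KO and 1 in all controls together (ratio 71.2, 95% counting interval 11.8 to 2907; without KO replicate 1, 110.4, 18.3 to 4516), and KO replicate 1, the library with the most Chac1 and Trib3, had the fewest.

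The tRNA synthetase genes, which ATF4 also induces in many cells, gave 0 called of 13 tested in the edgeR fit (1 had an unadjusted p under 0.05, and DESeq2 called 0), beside 3.15% and 16.4% of all genes tested, so that 0 of 13 is near the share over all genes. Of the 13 log2 fold changes 10 were above 0, beside 5921 of the 11551 genes tested. Their median was 0.18, beside 0.01 for all genes tested. The smallest p values were those of Nars (0.43, SE 0.14, adjusted p = 0.126) and Mars (0.46, SE 0.22, adjusted p = 0.313), the latter overlapping Ddit3.

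The ATF6 and IRE1-XBP1 arms of the unfolded protein response, which share PERK's trigger but not its eIF2 route, gave 0 called of 23 tested by edgeR (2 had an unadjusted p under 0.05), again beside 3.15% and 16.4% of all genes and near that share of calls, with a median of 0.02. Herpud1, a component of ER-associated degradation that ATF4 can also induce, just missed the threshold at 0.63 (SE 0.17, adjusted p = 0.0512) with all 3 KO libraries above every control, and DESeq2 called it (adjusted p = 0.019). Syvn1, the ubiquitin ligase of that route, had -0.65 (SE 0.24, adjusted p = 0.165).

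**Figure D3:**
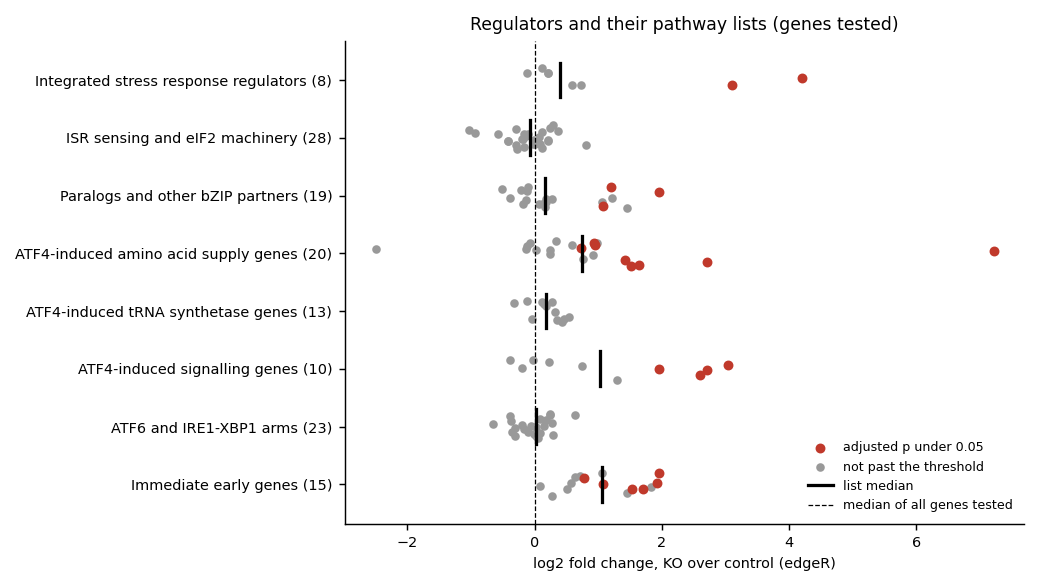
Log2 fold change, KO over control, of every tested gene in each list (number tested in brackets); red points have an adjusted p under 0.05, thick bars are list medians and the dashed line is the median of all genes tested. The amino acid supply list has 8 red points and the signalling list 4, while the lists of eIF2 machinery, tRNA synthetases and the ATF6 and IRE1-XBP1 arms have 0. Over all genes tested 3.15% were called.

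Immediate early genes, which respond within minutes to activity and to handling of cells such as papain dissociation, were listed because they could move with stress regulators. Of 15 tested, 6 were called higher and 0 lower, beside 2.27% and 0.883% of all genes tested, with a median log2 fold change of 1.07. Egr1 had a log2 fold change of 1.71 (SE 0.20, adjusted p = 0.000113), Fosb 1.95, Npas4 1.92 (SE 0.37, adjusted p = 0.00651) and Dusp1 0.78 (SE 0.17, adjusted p = 0.0147). The summed level of the 16 genes was 1919 to 3390 CPM in KO and 1103 to 1843 CPM in control libraries, and it was highest in KO replicate 1. Without that library 3 of these genes were called, Egr1, Fosb and Dusp1, and Dusp1 was not called without KO replicate 3 (adjusted p = 0.0861). The part of this in the rise of Chac1, Atf5, Nupr1 and Trib3 was not tested.

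KO replicate 1 stood apart from the other KO libraries for many of the regulators. It was the highest of the 10 libraries for 4 of the 8 tested regulators (Atf4, Atf5, Chac1 and Ppp1r15a), beside 18.1% of all genes tested, and for Trib3 and Nupr1, which were not tested. It had at least 2 times the mean of the other KO libraries for 2 of the 8 (Atf5 and Chac1), beside 9.83% of all genes tested, and again for Trib3 and Nupr1. For Cebpg, Eif2ak3 and Eif2ak4 it was the lowest KO library. Its ratio to the mean of the other KO libraries was 10.8 for Trib3, 2.41 for Chac1 and 2.34 for Nupr1. Blood genes summed to 2301 CPM there and to 34.7 and 20.4 CPM in the other KO libraries; in controls they ran from 0.72 to 1817 CPM, and Hbb-y was at 0 in every library. The 8 microglial markers summed to 9.11, 3.55 and 45.0 CPM in KO replicates 1, 2 and 3 and to 0 to 6.81 CPM in controls, and the 8 endothelial and mural markers to 3.37, 21.3 and 11.0 CPM and to at most 8.73 CPM. Interneuron markers summed to 45.3 to 152 CPM in KO and 17.3 to 115 CPM in controls, oligodendrocyte precursor markers to 7.88 to 28.3 and 0 to 84.2 CPM, and choroid plexus and meningeal markers, with Kl at 0 in every library, to 50.4 to 85.7 and 9.08 to 51.7 CPM. The Cajal-Retzius sum was 676, 599.6 and 813 CPM in KO replicates 1, 2 and 3, above every control in all of them, as were Chac1, Atf5, Nupr1 and Trib3. The part of any of these cell types in the levels of the regulators was not tested.

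**Figure D4:**
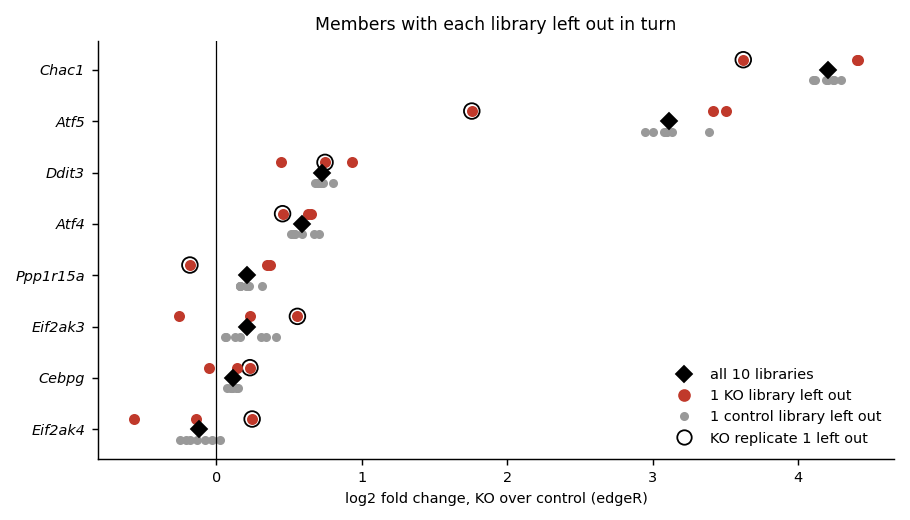
Log2 fold change of the 8 tested regulators in the edgeR fit with all 10 libraries (black diamonds), with 1 KO library left out (red) and with 1 control library left out (grey); rings mark the fit without KO replicate 1. Chac1 stays between 3.62 and 4.41, Atf5 drops to 1.76 without KO replicate 1, and Ppp1r15a, Cebpg, Eif2ak3 and Eif2ak4 fall on both sides of 0.

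Within the sets of libraries defined by their share of reads outside genes, Chac1 had means of 83.3 CPM (2 KO) and 2.98 CPM (3 controls) where the share was larger and 49.6 CPM (1 KO) and 4.48 CPM (4 controls) where it was smaller. Atf5 had 40.2 and 3.33 CPM in the set with the larger share and 15.7 and 4.40 CPM in the other. Nupr1 had 8.10 and 0 CPM, and 5.09 and 0 CPM. With 1 KO library in the set with the smaller share, these values carry no test. Cebpg, Ppp1r15a, Eif2ak3 and Eif2ak4 were higher in KO in one set and lower in the other.

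By position, 4 of the 10 regulators are on chromosome 7, with Cdkn1c: Atf5, Nupr1, Cebpg and Ppp1r15a. Of these, Atf5 and Nupr1 were higher in KO, while the intervals of Cebpg and Ppp1r15a spanned no change, and Chac1 and Trib3, both higher, are on chromosome 2 with Eif2ak4.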

How the data were processed

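The authors aligned Smart-Seq2 reads to GRCm38 with STAR 2.5.0c and deposited, for each library, the counts of uniquely mapped reads per gene on the GENCODE M16 annotation, unstranded and by strand; the authors merged technical replicates before alignment, and embryos were not pooled. The unstranded counts were used as deposited. Rows of unmapped, multimapped, ambiguous and outside-gene reads were kept out of library sizes; outside-gene reads were 5.47% to 16.7% of each library. Gene symbols, exon lengths and positions came from GENCODE M21 on GRCm38.

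Counts were scaled by TMM and tested with edgeR 4.0.16 (quasi-likelihood, group as the only term, Benjamini-Hochberg over every gene whose mean reached 10 reads); limma 3.58.1 (voom) and DESeq2 1.42.0, other filters, scalings, strand counts, thinning and left-out libraries were alternatives. The fit was tested on simulated data. Single values and ratios used an exact permutation test over libraries (scipy 1.17.1). At this depth the median SE of a log2 fold change was 0.27. Each library is 1 embryo. Embryos of the groups share replicate numbers, which were not treated as pairs (correlation of same-numbered deviations 0.041, -0.103 and -0.211). These few values cannot show whether same-numbered embryos shared a litter or processing. The members, lists and motifs were chosen with earlier results of these data known. Named genes are all 10 regulators, Cdkn1c and close paralogs, and from each list up to 4 called genes with the smallest p, or the 2 smallest where none was called. Intervals and floors are at 95% and 3 counts.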

Additional observations from a re-analysis of the deposited data

Results flagged for a closer look

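Among the 38 genes named in the report whose control values vary, the 7 control libraries were searched for a single value far from the rest (Dixon's test; chance marks about 1 group in 20), and 4 genes had one. Ddit3 was at 36.0 CPM in control replicate 6, with the next control at 28.1 CPM, and that 1 value makes the whole overlap between the groups for Ddit3, the lowest KO library being at 30.3 CPM. Egr1 was at 95.8 CPM in control replicate 1, with the next at 63.6 CPM. Trib3 was at 1.09 CPM (3 reads) in control replicate 1 and at 0 in the other 6 controls. Gdf15 was at 0.356 CPM (1 read) in control replicate 7 and at 0 in the other 6; for Trib3 and Gdf15 a few reads make the whole control range. Control replicate 1 was also the control with the highest Atf4 level, 286 CPM.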

How the results depend on the processing

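Chac1 and Atf5 were called under every alternative and with every library left out; the regulators called numbered 5 with no filter on low counts, 3 with the outside-gene share as a covariate and 2 to 3 with 1 library left out. With no filter, calls over all genes were 701 higher and 260 lower, in place of 262 and 102. Called higher were then 9 of 26 bZIP partners, 10 of 18 signalling genes and 10 of 16 immediate early genes, beside 2.64% of the 26537 genes in that fit. Some genes added there, such as Fgf21, had reads only in KO libraries. Called lower were 1 amino acid supply gene and 2 genes of the eIF2 machinery. DESeq2 called 210 genes lower, 2 of the eIF2 machinery lower and 1 of the ATF6 and IRE1-XBP1 arms higher. With that covariate 1 gene of the eIF2 machinery was called lower and 1 of the ATF6 and IRE1-XBP1 arms higher; summed strand columns and thinning to the smallest library also called 1 gene of those arms higher. The replicate number was not treated as a pairing, and not every library correlated best with its own number. With the replicate number as a block 141 genes and 5 amino acid supply genes were called higher, the regulators called stayed at 2, and Eif2ak4 moved to 0.17. The cause of these moves was not tested.

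With 1 library left out, calls ranged from 187 to 268 higher and from 83 to 156 lower over all genes (156 without KO replicate 2), 0 to 1 lower in the eIF2 machinery, 2 to 5 higher among bZIP partners (5 without KO replicate 2), 7 to 8 higher among amino acid supply genes, 3 to 5 among signalling genes, 0 to 1 higher among tRNA synthetases, 0 to 1 in either direction in the ATF6 and IRE1-XBP1 arms, and 3 to 7 higher among immediate early genes (3 without KO replicate 1). The log2 fold change ranged from -0.053 to 0.23 for Cebpg, from -0.18 to 0.37 for Ppp1r15a, from -0.26 to 0.56 for Eif2ak3 and from -0.57 to 0.25 for Eif2ak4, so no direction can be given for these. Mean levels without the TMM factor moved by less than the spread between replicates for all 10 regulators. Low counts limit Trib3, Nupr1 and the kinase genes.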
